A study of Homo sapiens with 18 samples.

Results

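The genes described here are the 10 measured genes of the MYC, MAX and MXD network: MYC, MAX, MXI1, MXD1, MXD3, MXD4, MNT, MGA, MLX and MLXIPL. They were chosen by name from the 23106 genes of the count tables. The rule itself uses no measured value, but the choice was made with earlier results of these data known. RNA-seq counts came from 18 samples of 3 human cell lines, with 3 normoxic and 3 hypoxic samples for each line. HKC-8 is a renal tubule epithelial line. RCC4 is a renal carcinoma line that has lost the von Hippel-Lindau tumour suppressor VHL, the protein that targets the HIF-α subunits for destruction in oxygen; here both the normoxic and the hypoxic RCC4 cells carried a stably transfected wild-type VHL and are called RCC4+VHL. HepG2 is a liver cancer line. Hypoxia was 0.5% oxygen for 16 h in HepG2 cells. For the HKC-8 samples the labels also gave 0.5% for 16 h, but the sample titles read 0.1%, with 21% for the normoxic samples. For RCC4+VHL the labels gave 1% for 24 h, whereas a figure legend of the study gives all lines the exposure of HepG2, so RCC4+VHL values stand beside those of the other lines and no response in RCC4+VHL was tested against theirs. Each group is 1 line with 3 samples. Nothing in the labels says that these came from separate cultures, so the p-values measure only the spread between these samples, which may be technical.

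MYC and MAX form a heterodimer that binds the E-box CACGTG and activates genes of ribosome production, nucleotide synthesis and metabolism. MAX has other partners. MXD1, MXI1 (also called MXD2), MXD3, MXD4 and MNT bind the same E-boxes with MAX and recruit SIN3 and histone deacetylases, which opposes MYC, while MGA joins MAX to a Polycomb complex, PRC1.6. MLX is a second hub protein, related to MAX, that pairs with some MXD proteins and with the glucose-sensing activators MLXIP (MondoA) and MLXIPL (ChREBP). MXI1 is a known target of HIF, the hypoxia-inducible factor that hypoxia stabilises, and HIF binds the core motifs ACGTG and GCGTG, the first of which lies inside CACGTG.

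Levels are given in CPM, a gene's reads scaled to a fixed library total. Total counts ran from 40915980 to 97984260 per sample. VEGFA, a HIF target used as a check of the labels, rose in every line, with log2 fold changes of 1.72 in HKC-8, 0.87 in RCC4+VHL and 1.38 in HepG2. Its companion CA9 rose by 4.92 and 8.45 on the log2 scale in HKC-8 and HepG2, but had only 3 to 6 counts in each hypoxic RCC4+VHL sample and none in normoxia. The 9 liver markers summed to between 35340 and 45930 CPM in HepG2 and to at most 11.2 in the kidney lines. Among kidney epithelium markers, PAX8 averaged 165 and CDH16 3.21 CPM in normoxic HKC-8, while PAX2, LHX1 and CDH6 were each under 0.1. The 8 proximal tubule markers summed to only 2.12 to 4.65 CPM in HKC-8 samples, so that tubule segment was not recognisable from its defining markers.

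In each line the response to hypoxia was tested with edgeR's quasi-likelihood test, and a gene was called at a Benjamini-Hochberg adjusted p under 0.05 over all genes tested. In HKC-8, 4 of the 9 network genes tested rose (MYC, MXI1, MXD4 and MNT) and 1 fell (MLX), against 11.2% of all genes called higher and 9.12% called lower. In RCC4+VHL, 3 of 9 rose (MYC, MXI1 and MGA) and 2 fell (MAX and MLX), against 25.9% and 24.2% of all genes. In HepG2, 2 of 10 rose (MXI1 and MXD4) and 2 fell (MLX and MLXIPL), against 19.9% and 19.2%. MXI1 was called higher in all 3 lines and MLX was called lower in all 3. Of the 11418 genes tested in every line, 3.81% were called higher in all 3 and 3.43% lower in all 3. The per-sample levels below are CPM scaled by the trimmed mean of M values (TMM) over all 18 samples.

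**Figure D1:**
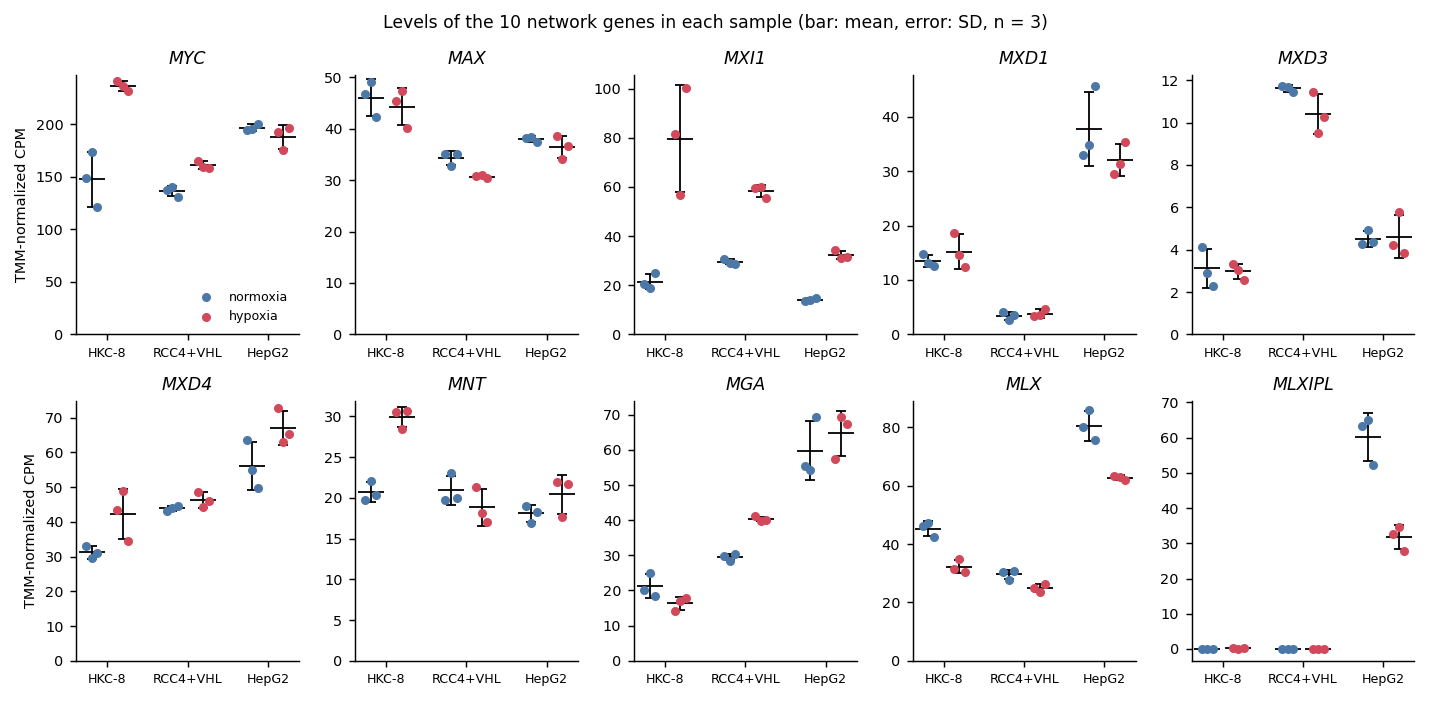
TMM-normalized CPM (y axes, linear, a separate scale for each gene) of the 10 network genes in normoxic (blue) and hypoxic (red) samples of each cell line (x axes); points are samples, bars are means and error bars SDs, n = 3. Hypoxic samples lie above all normoxic ones for MXI1 and below them for MLX in every line, and MLXIPL is at or near 0 outside HepG2.

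MYC (ENSG00000136997, GRCh37 chr8:128747680-128755197, plus strand) is the activator of the network. In HKC-8 its level was 149, 173 and 121 CPM in the normoxic samples and 241, 236 and 232 CPM in the hypoxic ones. The 3 hypoxic samples were close to each other and all above the normoxic ones, which spread more widely. The difference was a 1.6-fold rise (log2 fold change 0.68 ± 0.12, SE; edgeR adjusted p = 0.0061). In RCC4+VHL MYC was at 138, 140 and 131 CPM in normoxia and at 165, 159 and 159 CPM in hypoxia, again without overlap. This 1.19-fold rise was small beside that in HKC-8, but the samples were tight (log2 fold change 0.25 ± 0.04, edgeR adjusted p = 6.32e-06); with 1 fit of all 18 samples, which shares the spread between lines, the adjusted p was 0.0529 and the call was lost. In HepG2 MYC started highest, at 195, 196 and 201 CPM, and the hypoxic samples lay at 193, 175 and 197 CPM. The groups overlapped, and no change was called (log2 fold change -0.07 ± 0.06, edgeR adjusted p = 0.43). In bulk samples such as these, a change in the share of cells that express a gene and a change in RNA per cell cannot be told apart.

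MAX (ENSG00000125952, chr14:65472892-65569413, minus strand), the shared partner, stayed within a narrow range of 30.3 to 49.1 CPM over all 18 samples. In RCC4+VHL the level went from 35.0, 32.7 and 35.0 CPM to 30.7, 31.0 and 30.3 CPM, with every hypoxic sample below every normoxic one. This fall of 0.15 ± 0.05 on the log2 scale (edgeR adjusted p = 0.0195) was lost without normoxic replicate 1 (adjusted p = 0.0663), without normoxic replicate 3 (0.0584), without hypoxic replicate 3 (0.0607) and in the fit of all 18 samples (0.137). In HKC-8 and HepG2 the MAX groups overlapped, with log2 fold changes of -0.05 and -0.06 and edgeR adjusted p-values of 0.733 and 0.529. MAX overlaps FNTB on the opposite strand, and since the sources used here do not state whether strand was used in counting, reads from the overlapping parts cannot be told apart. The MYC level relative to MAX, as log2 of the CPM ratio, was 1.67 ± 0.15 (SD, n = 3) in normoxic and 2.42 ± 0.10 in hypoxic HKC-8, 1.99 ± 0.10 and 2.39 ± 0.03 in RCC4+VHL, and 2.38 ± 0.04 and 2.37 ± 0.05 in HepG2. MYC thus gained on MAX in the kidney lines, where the ranges of normoxic and hypoxic samples did not overlap, and the ranges overlapped in HepG2.

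**Figure D2:**
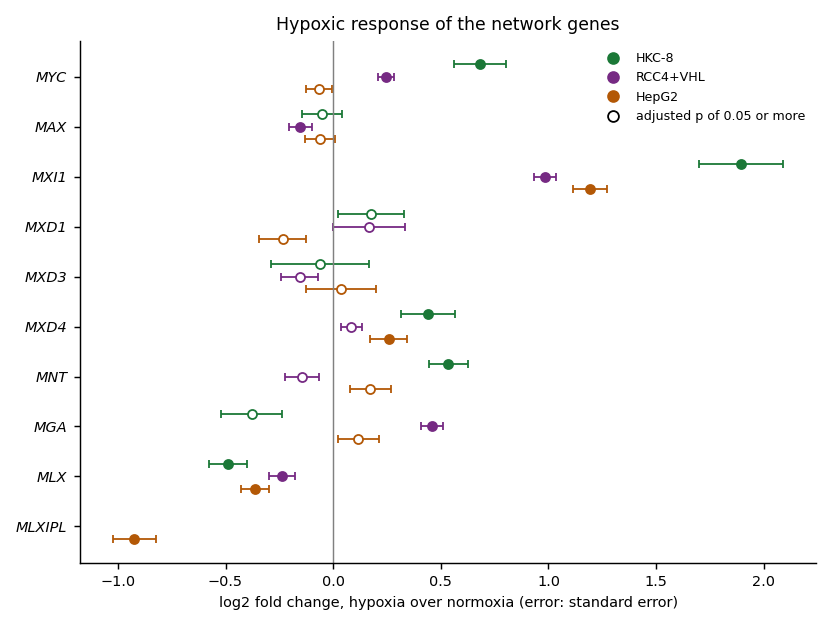
Log2 fold change of each network gene (y axis), hypoxia over normoxia (x axis), in HKC-8 (green), RCC4+VHL (purple) and HepG2 (orange); error bars are standard errors, filled points passed edgeR's adjusted p of 0.05 and open points did not. MXI1 lies farthest to the right in every line, MLX lies left of 0 in every line, and MLXIPL could be tested in HepG2 alone.

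MXI1 (ENSG00000119950, chr10:111967363-112047123, plus strand), a MAX partner that represses E-box genes, had the largest rise of the network genes tested in every line. In HKC-8 the normoxic samples held 20.7, 18.8 and 24.9 CPM and the hypoxic samples 81.6, 56.9 and 100 CPM. Even the lowest hypoxic sample was far above the highest normoxic one, and the hypoxic samples differed widely among themselves. The rise was 3.72-fold (log2 fold change 1.89 ± 0.20, edgeR adjusted p = 0.000408). In RCC4+VHL MXI1 was already higher in normoxia, at 30.9, 29.1 and 28.8 CPM, and reached 59.4, 59.8 and 55.4 CPM. These tight groups gave a 1.98-fold rise (log2 fold change 0.98 ± 0.05, edgeR adjusted p = 1.4e-13). HepG2 had the lowest MXI1 of the 3 lines in normoxia, 13.6, 13.9 and 14.9 CPM, and 34.2, 31.2 and 31.5 CPM in hypoxia. There the rise was 2.28-fold (log2 fold change 1.19 ± 0.08, edgeR adjusted p = 7.83e-08), and hypoxic HepG2 came only to about the level of normoxic RCC4+VHL.

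RefSeq (GRCh38.p14) lists 3 promoters of MXI1, each covering 250 bases before and 50 after a transcription start, and each matched 1 place in GRCh37. They are shown because MXI1 carried the most marked hypoxic change and because the HIF core letters ACGTG and GCGTG, searched on both strands, lie upstream of 2 of the 3 starts. The first promoter, at the start 111967363, holds neither. The 250 bases before the second start (111969989), with GCGTG on the plus strand beginning at position -127 and ACGTG on the minus strand beginning at -113, are printed whole, and a stretch of 60 bases around the GCGTG at -131 of the third start (111985754) follows. Capitals mark the motif letters, both stretches are read 5′ to 3′ on the plus strand of GRCh37, and both lie inside the MXI1 gene and outside all of its annotated exons.
MXI1, the second promoter, chr10:111969739-111969988: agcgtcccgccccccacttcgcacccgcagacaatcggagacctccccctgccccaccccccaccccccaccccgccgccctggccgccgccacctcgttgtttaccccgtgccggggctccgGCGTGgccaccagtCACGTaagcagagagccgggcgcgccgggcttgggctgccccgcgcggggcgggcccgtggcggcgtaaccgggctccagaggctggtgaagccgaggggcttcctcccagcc
MXI1, the third promoter, chr10:111985594-111985653: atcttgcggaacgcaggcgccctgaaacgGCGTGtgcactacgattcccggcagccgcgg

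Neither motif is rare. Of all 35116 promoters in the table, 21.4% hold ACGTG, 36.5% hold GCGTG and 48.5% hold at least 1 of them in the 300 bases, and the second MXI1 promoter is rich in G and C (75.3%). For the network, the table held 14 promoters of the 9 genes other than MYC. At least 1 of the motifs was found in 10 of the 14 (71.4%), and the 10 belong to MAX, MXI1, MXD3, MXD4, MNT, MGA and MLX, genes that rose, fell or were not called. The matches are a description of the sequence; no binding was measured in the counts.

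Among the other MAX-binding repressors, MXD4 and MNT moved in HKC-8, while MXD1 and MXD3 were called in no line. MXD4 (ENSG00000123933, chr4:2249159-2263836, minus strand) was at 33.2, 29.5 and 31.2 CPM in normoxic HKC-8 and at 43.5, 48.9 and 34.4 CPM in hypoxia. The third hypoxic sample was only just above the normoxic ones. The rise of 0.44 ± 0.13 on the log2 scale passed narrowly (edgeR adjusted p = 0.0391) and was lost when any of 5 of the 6 libraries was left out; without hypoxic replicate 3 it held, and without each of the others the adjusted p was between 0.0582 and 0.129. In HepG2 the samples read 63.5, 55.1 and 49.7 CPM in normoxia and 72.7, 63.1 and 65.3 CPM in hypoxia. The groups overlapped through normoxic replicate 1, and the rise of 0.26 ± 0.09 (edgeR adjusted p = 0.0308) was lost without normoxic replicate 2 (0.0581), normoxic replicate 3 (0.0716), hypoxic replicate 1 (0.15) or hypoxic replicate 3 (0.063). In RCC4+VHL MXD4 lay between 43.2 and 48.7 CPM in all 6 samples, with overlapping groups and no call (log2 fold change 0.08, edgeR adjusted p = 0.169).

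MNT (ENSG00000070444, chr17:2287367-2304398, minus strand) is the most widely expressed of the MAX-binding repressors. In HKC-8 it went from 19.7, 22.1 and 20.3 CPM to 30.6, 28.5 and 30.7 CPM, well clear of the normoxic range. This 1.45-fold rise (log2 fold change 0.54 ± 0.09, edgeR adjusted p = 0.00553) held clear of the spread between samples. In RCC4+VHL the groups overlapped, at 19.7 to 23.0 CPM in normoxia and 17.0 to 21.4 CPM in hypoxia (log2 fold change -0.15, edgeR adjusted p = 0.136). HepG2 also overlapped, at 16.9 to 19.04 CPM and 17.7 to 21.9 CPM (log2 fold change 0.17, edgeR adjusted p = 0.172).

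MXD1 (ENSG00000059728, chr2:70124820-70170077, plus strand), a repressor linked to terminal differentiation, differed more between lines than between oxygen levels. It lay at 12.4 to 18.6 CPM in HKC-8, at 2.64 to 4.70 CPM in RCC4+VHL and at 29.5 to 45.6 CPM in HepG2, and the oxygen groups overlapped in each. The log2 fold changes were 0.18, 0.17 and -0.24, with edgeR adjusted p-values of 0.451, 0.435 and 0.11. MXD3 (ENSG00000213347, chr5:176728462-176739758, minus strand) was the least expressed repressor in HKC-8 and HepG2, at 2.30 to 4.13 and 3.85 to 5.80 CPM, and was higher in RCC4+VHL at 9.53 to 11.7 CPM. Its oxygen groups overlapped in every line, with log2 fold changes of -0.06, -0.16 and 0.04 and edgeR adjusted p-values of 0.87, 0.139 and 0.882. MXD1 overlaps SNRNP27 on the same strand, and MXD3 overlaps RAB24 on the same strand and PRELID1 on the opposite one, so part of their reads could have been left uncounted or shared.

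The E-box CACGTG, the binding sequence of the network itself, was found in the promoters of 3 network genes, MXD4, MNT and MLX, and in 7.26% of all promoters in the table. These 3 are printed because they hold the network's own motif. The letters of CACGTG read the same on both strands, so each match also holds ACGTG once on each strand. Capitals mark CACGTG and, for MLX, also a GCGTG on the minus strand, written CACGC here. Each stretch is read 5′ to 3′ on its gene's strand, lies upstream of the RefSeq start and outside the exons annotated for the gene, with GRCh37 coordinates from an exact match; the motif begins 238, 193 and 50 bases before the start.
MXD4, chr4:2264037-2264086, minus strand: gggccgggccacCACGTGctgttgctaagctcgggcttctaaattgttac
MNT, chr17:2304515-2304574, minus strand: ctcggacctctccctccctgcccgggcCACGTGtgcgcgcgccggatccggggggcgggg
MLX, chr17:40719038-40719089, plus strand: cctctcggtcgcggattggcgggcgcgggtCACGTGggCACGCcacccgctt

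MLX (ENSG00000108788, chr17:40719090-40725257, plus strand), the second hub, fell in every line, while MXD4 and MNT with the same motif were called higher or not called. In HKC-8 it went from 46.0, 47.3 and 42.6 CPM to 31.3, 34.8 and 30.5 CPM, a fall of 0.49 ± 0.09 on the log2 scale (edgeR adjusted p = 0.00675). RCC4+VHL samples went from 30.4, 27.6 and 30.7 CPM to 24.98, 23.5 and 26.5 CPM, a fall of 0.24 ± 0.06 (edgeR adjusted p = 0.00258). HepG2 had the most MLX, 80.0, 85.9 and 75.6 CPM in normoxia, and 63.3, 63.0 and 61.8 CPM in hypoxia. The HepG2 fall was 0.36 ± 0.07 (edgeR adjusted p = 0.000731), and in none of the lines did a hypoxic sample reach a normoxic one. MLX overlaps PSMC3IP on the opposite strand, with the same limit as for MAX.

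MLXIPL (ENSG00000009950, chr7:73007524-73038873, minus strand), a carbohydrate-responsive activator of glycolytic and lipogenic genes in liver, was in practice a HepG2 gene. Its HepG2 level was 63.4, 64.95 and 52.2 CPM in normoxia and 32.7, 34.6 and 27.9 CPM in hypoxia. Every hypoxic sample was far below every normoxic one, and the fall was the largest of the network (log2 fold change -0.92 ± 0.10, edgeR adjusted p = 8.55e-06). In RCC4+VHL the 3 normoxic samples had 0 counts together, and the hypoxic samples had 1 count. A limit of 3 counts over the normoxic group was 0.0213 CPM of the total count. The exact 95% interval for its 0 counts reached 0.0261 CPM. The normoxic HepG2 level of 61.0 CPM of the total count was 2870-fold above the limit of 3 counts. HKC-8 had 2, 1 and 6 counts in normoxia and 25, 8 and 17 in hypoxia, too few to pass the filter on low counts. The pooled ratio of 50 to 9 counts, scaled to total counts, was 5.48 (exact 95% interval 2.67 to 12.7, counting error only).

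MGA (ENSG00000174197, chr15:41913332-42065279, plus strand), the PRC1.6 member, had changes of opposite sign in the kidney lines. In RCC4+VHL it went from 29.7, 28.5 and 30.3 CPM to 41.1, 39.8 and 40.1 CPM, a 1.37-fold rise with no overlap (log2 fold change 0.46 ± 0.05, edgeR adjusted p = 1.06e-07). In HKC-8 the samples read 20.2, 25.1 and 18.5 CPM in normoxia and 14.2, 16.9 and 17.9 CPM in hypoxia. The HKC-8 groups did not overlap, but the gap between them was small and the difference missed the threshold (log2 fold change -0.38 ± 0.14, edgeR adjusted p = 0.0904). With the replicate number as a block, the HKC-8 value was -0.37 with an edgeR adjusted p of 0.0157, and MGA was called lower. The block rests on a pairing of same-numbered samples that replicate 1 met only just. In HepG2 MGA was highest, 54.4 to 69.5 CPM in normoxia and 57.5 to 69.3 CPM in hypoxia, with overlap and no call (log2 fold change 0.12, edgeR adjusted p = 0.358).

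The MAX-binding repressors can be set beside each other per length, as CPM per kilobase of the merged exons of each gene. The summed level of MXI1, MXD1, MXD3, MXD4 and MNT on this scale was 12.7 to 13.8 in normoxic and 23.0 to 28.0 in hypoxic HKC-8. It was 16.6 to 16.9 and 20.9 to 22.5 in RCC4+VHL, and 18.8 to 19.95 and 22.7 to 24.4 in HepG2. The sum was thus higher in every hypoxic sample than in any normoxic sample of its line. These values describe the samples and were not tested.

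MXI1 made up 25.4, 25.04 and 31.1% of that sum in normoxic HKC-8 and 50.6, 41.9 and 60.6% in hypoxic HKC-8. In RCC4+VHL its share went from 30.9, 29.2 and 29.3% to 44.6, 47.7 and 44.8%. In HepG2 it went from 11.6, 12.5 and 12.6% to 23.7, 23.3 and 22.5%. In normoxia MXD4 was the leading repressor transcript in every line, with mean shares of 34.1% in HKC-8, 38.1% in RCC4+VHL and 41.8% in HepG2. Under hypoxia MXI1 held the largest mean share in HKC-8 and RCC4+VHL, at 51.1% and 45.7%, while MXD4 still led in HepG2 at 41.3%. HepG2 also differed in the share of MXD1, which averaged 30.4% in normoxia and 21.4% in hypoxia, against 3.23% and 2.82% in RCC4+VHL.

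**Figure D3:**
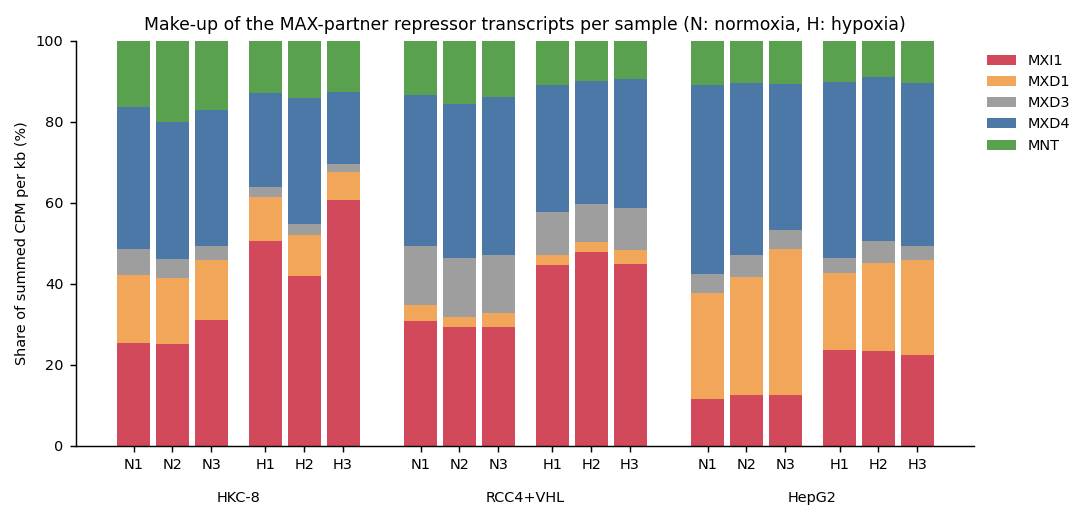
Share of each MAX-binding repressor in their summed CPM per kb of merged exons (y axis, %), for each normoxic (N) and hypoxic (H) sample of the 3 lines (x axis, with the replicate number). The MXI1 share (red, at the base) is larger in every hypoxic sample than in the normoxic samples of its line, and MXD1 (orange) is prominent in HepG2 and thin in RCC4+VHL.

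Over the whole network and on the same per-length scale, MYC had the highest level in each of the 6 groups, from 22.3 CPM per kb in normoxic RCC4+VHL to 38.7 in hypoxic HKC-8. In normoxic HKC-8 the next were MLX at 10.7 and MAX at 7.36, with MXI1 at 3.63. In hypoxic HKC-8 MXI1 was next after MYC at 13.5 ± 3.7 (SD, n = 3), ahead of MLX at 7.57 and MAX at 7.08, which lay within about 1 SD of each other. Hypoxic RCC4+VHL gave MXI1 at 9.85 next after MYC, followed by MXD4 at 6.74. In HepG2 MLX and MLXIPL followed MYC in normoxia, at 18.9 and 12.5, and in hypoxia MLX at 14.7 was followed by MXD4 at 9.76. MGA and MXD3 were among the lowest in HKC-8, at 1.06 and 0.657 in normoxia, above only MLXIPL. With the longest transcript of each gene in place of the merged exons, MAX came ahead of MLX in hypoxic HKC-8, and the other ranks given here held.

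The level of MYC relative to MXI1 was lower in hypoxia in all 3 lines, including HKC-8 and RCC4+VHL where MYC itself rose. As log2 of the CPM ratio within a sample it was 2.85, 3.21 and 2.28 in normoxic HKC-8 and 1.56, 2.05 and 1.21 in hypoxic HKC-8. RCC4+VHL samples went from 2.16, 2.27 and 2.19 to 1.48, 1.41 and 1.52, and HepG2 samples from 3.84, 3.81 and 3.75 to 2.50, 2.49 and 2.65. No hypoxic sample reached the normoxic samples of its line. The HKC-8 samples were the most spread, with replicate 3 lowest in both oxygen levels. These are transcript levels, and the counts hold no protein measurement.

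**Figure D4:**
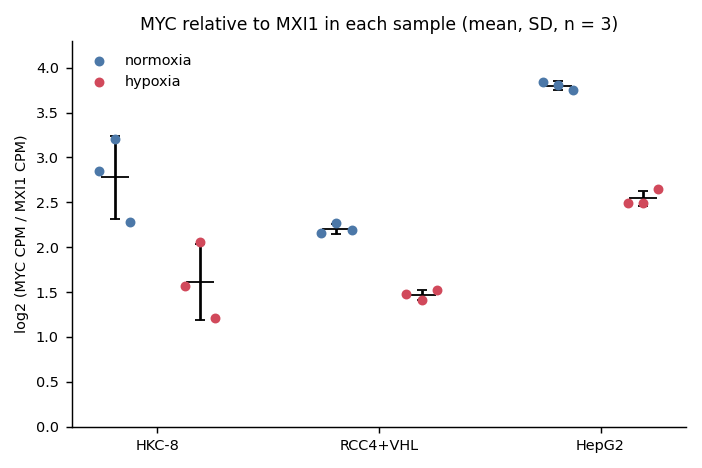
Log2 of MYC CPM over MXI1 CPM (y axis) in each normoxic (blue) and hypoxic (red) sample of the 3 lines (x axis); bars are means and error bars SDs, n = 3. Hypoxic samples lie below all normoxic samples of their line, with the widest spread in HKC-8.

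HKC-8 and HepG2 share the oxygen level and duration that the labels give, so the difference between their responses was tested as a line-by-oxygen interaction, in which a negative value is a lower response in HepG2. The titles' 0.1% for HKC-8 would make the exposures differ, and the line and that level then cannot be told apart. Of the 10 network genes, none had a higher and 2 a lower response in HepG2 (MYC and MLXIPL), against 5.02% and 4.28% of all genes. At an unadjusted p under 0.05 edgeR had 1 higher and 4 lower, and DESeq2 called 0 higher and 3 lower after adjustment. No share of all genes is given for those settings. The MYC response was lower in HepG2 by -0.74 ± 0.14 on the log2 scale (edgeR adjusted p = 0.0036), with a rise in HKC-8 and overlapping groups in HepG2. MLXIPL differed by -3.32 ± 0.59 (edgeR adjusted p = 0.00226), but this rests on the 9 counts of normoxic HKC-8. The gene failed the filter on low counts in HKC-8 and entered this test through its HepG2 counts. With at least 10 counts required in every sample it could not be tested. MXI1 rose in both lines, and its difference of -0.70 ± 0.22 missed the threshold (edgeR adjusted p = 0.0654); it was called with the replicate block (-0.67, adjusted p = 0.00153), in DESeq2 (0.0313), with no filter on low counts (0.0437), in the fit of all 18 samples (0.0228), without HKC-8 normoxic replicate 3 (0.0195) and without HKC-8 hypoxic replicate 2 (0.00282). The block met the check of pairing in HKC-8, for replicate 1 only just, and did not in HepG2. With it 5 network genes had a lower response in HepG2, MYC, MXI1, MXD1, MNT and MLXIPL, and 1 a higher one, MGA. Calls over all genes also rose with the block, so these counts are not read as a result about the network. For MXD3, MXD4, MAX and MLX the difference was not called in any of these fits.

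In normoxia the lines differed in most network genes, as they did in most genes. RCC4+VHL against HKC-8 gave 4 higher (MXI1, MXD3, MXD4 and MGA) and 4 lower (MAX, MXD1, MLX and MLXIPL), beside 39.4% and 41.4% of all genes. The MLXIPL call there compares 0 counts with 9. The gene entered this fit only through its HepG2 counts, so that call is not taken as support for a difference between the kidney lines. HepG2 against HKC-8 gave 7 higher and 2 lower (MAX and MXI1), beside 42.6% and 40.5%. HepG2 against RCC4+VHL gave 6 higher and 2 lower (MXI1 and MXD3), beside 45.3% and 38.1%. MLXIPL was among the genes called higher in both HepG2 comparisons, and there too it passed the filter through HepG2 alone.

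MXD1 had the widest normoxic range apart from MLXIPL, with 37.7 ± 6.8 CPM (SD, n = 3) in HepG2, 13.5 ± 1.1 in HKC-8 and 3.44 ± 0.76 in RCC4+VHL. Each step of that order passed the test, and HepG2 was 11.03-fold above RCC4+VHL (log2 fold change 3.46 ± 0.17, edgeR adjusted p = 1.65e-10). MXI1 ran the other way, from 29.6 ± 1.1 CPM in RCC4+VHL through 21.5 ± 3.1 in HKC-8 to 14.1 ± 0.7 in HepG2, and each neighbour differed (edgeR adjusted p = 0.00083 and 0.000173). MYC was higher in HepG2 than in HKC-8 (1.35-fold, edgeR adjusted p = 0.00111) and than in RCC4+VHL (1.45-fold, adjusted p = 0.000193), while the kidney lines overlapped (adjusted p = 0.351). MGA stood at 59.7 CPM in HepG2, 29.5 in RCC4+VHL and 21.3 in HKC-8, and MLX at 80.5, 29.6 and 45.3 CPM, and all these pairs were called. MNT, at 18.1 to 20.9 CPM, was called between no lines. Other settings called it lower in HepG2 than in RCC4+VHL (5 settings, adjusted p between 0.0233 and 0.0493, and without HKC-8 normoxic replicate 2 or 3 or HepG2 normoxic replicate 1 or 3) and than in HKC-8 (total count scaling, 0.0498; no filter on low counts, 0.028; without HKC-8 normoxic replicate 3, 0.0296; without HepG2 normoxic replicate 1, 0.0424). MXD3 in HepG2 and HKC-8 differed by 0.56 on the log2 scale (edgeR adjusted p = 0.0129), a call lost without HKC-8 normoxic replicate 2 (0.0565), HKC-8 normoxic replicate 3 (0.0674) or HepG2 normoxic replicate 2 (0.083). MLXIPL was 1684-fold higher in HepG2 than in HKC-8 as a ratio of pooled counts (exact 95% interval 886.8 to 3685), and its call between the kidney lines compares 9 counts with 0, lies at the counting limit, and was lost without HKC-8 normoxic replicate 3 (0.106) or any of the 3 normoxic RCC4+VHL samples (0.0503 to 0.055).

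The genes whose levels followed MXI1 and MYC most closely were ranked by Pearson's r of log2 CPM over the 18 samples, among 15306 genes. For MXI1 they were RNMT (r = 0.957), TGFBR1 (0.948), CCSAP (0.946), RAB6A (0.945) and CCNG2 (0.939). RNMT caps messenger RNA, TGFBR1 is a TGF-β receptor, RAB6A directs Golgi traffic and CCNG2 is a cyclin linked to arrest. All 5 were called higher in all 3 lines, RAB6A in HepG2 only narrowly (0.16, edgeR adjusted p = 0.047; lost under total count scaling, 0.406, and when any of 4 samples was left out; the HKC-8 call was lost without normoxic replicate 1, 0.0627, normoxic replicate 2, 0.0585, or hypoxic replicate 1, 0.0672), for RNMT with log2 fold changes of 0.71, 0.66 and 0.78 and for CCNG2 of 1.41, 0.66 and 1.31 in HKC-8, RCC4+VHL and HepG2. For MYC the r values were lower: TTC17 (0.873), UAP1L1 (0.840), CDK18 (0.838), GLTSCR1L (0.820) and KIFC2 (0.815). TTC17 and UAP1L1 were called higher in HKC-8 (both 0.43) and RCC4+VHL (0.15 and 0.21) and not in HepG2 (0.04 and -0.03), as MYC was. The UAP1L1 calls were lost without normoxic replicate 1 of the line (edgeR adjusted p = 0.0847 in HKC-8 and 0.056 in RCC4+VHL), as was that of CCNG2 in HKC-8 (0.0557). CDK18, a cyclin-dependent kinase, instead rose in all 3 lines (2.15, 1.02 and 0.97). The 18 points share their line and oxygen level, so these r values describe the ranking.

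The other network genes outside the 10 were MLXIP, MYCL1 and MYCN. MLXIP, the glucose-sensing partner of MLX, averaged 71.8 CPM in normoxic and 99.4 in hypoxic HKC-8 and rose there (log2 fold change 0.47 ± 0.08, edgeR adjusted p = 0.00619). In RCC4+VHL MLXIP fell by 0.21 ± 0.05 (edgeR adjusted p = 0.00247), from 46.3 to 40.0 CPM, and in HepG2 it was not called (0.13, adjusted p = 0.149). MYCL1, a MYC paralog, was scarce, with means of 0.763 to 3.44 CPM. It was called higher in RCC4+VHL (0.61, edgeR adjusted p = 0.0116) and HepG2 (0.72, adjusted p = 0.0425), while in HKC-8 it had 0.60 with an adjusted p of 0.0883 and was called higher with the replicate block (0.61, adjusted p = 0.0159), in DESeq2 (0.0485), in the fit of all 18 samples (0.045) and without normoxic replicate 3 (0.0326). The RCC4+VHL call was lost without normoxic replicate 1 (0.0904) or hypoxic replicate 1 (0.1), and the HepG2 call without normoxic replicate 2 or 3 or hypoxic replicate 1 or 2 (0.0826 to 0.189). MYCN had at most 5 counts in any sample and was not tested.

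Of a list of 62 genes known to be activated by MYC, more were called lower than higher in RCC4+VHL and HepG2. In HKC-8 this held with all samples, but the count of calls depended on 1 library. Like the other lists, it was drawn up with earlier results of these data known. In HKC-8, 18 of 62 fell and 7 rose, beside 9.12% and 11.2% of all genes, with a median log2 fold change of -0.32 over the list and 0.00 over all genes. With the replicate block 43 fell and 9 rose, where 42.5% of all genes were called. Without normoxic replicate 1, 1 was called lower and 4 higher. Calls over all genes also dropped in that fit, to 1013, from 1522 higher and 1235 lower with all samples. The list median of that fit is not given here, so a change of direction cannot be told from lost calls. In RCC4+VHL, 35 of 61 fell and 12 rose (median -0.12), beside 24.2% and 25.9% of all genes, and in HepG2, 33 of 62 fell and 8 rose (median -0.19), beside 19.2% and 19.9%. In all 3 lines 13 of the 61 genes tested in each fell and 5 rose, beside 3.43% and 3.81% of all genes. Among those that fell were ODC1, the first enzyme of polyamine synthesis, with log2 fold changes of -0.67, -0.22 and -0.49 in HKC-8, RCC4+VHL and HepG2, and RRP9, a small nucleolar RNP protein, with -0.89, -0.67 and -0.63. In HKC-8 the calls of both were lost without normoxic replicate 1 or 2 or hypoxic replicate 1 or 3 (edgeR adjusted p = 0.0699 to 0.113), and that of ODC1 in RCC4+VHL was lost in the fit of all 18 samples (0.226).

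The 5 that rose in every line were HK2, LDHA, ENO1, PKM and SLC7A5. The first 4 are glycolytic enzymes that are also known HIF targets, and SLC7A5 is an amino acid transporter. HK2 rose by 1.49, 2.13 and 1.77 on the log2 scale and LDHA by 1.47, 1.77 and 1.76, in HKC-8, RCC4+VHL and HepG2. ENO1 rose by 0.61, 0.69 and 1.34, PKM by 0.43, 0.52 and 1.04, and SLC7A5 by 0.77, 0.66 and 0.28. Of these 15 calls, that of PKM in HKC-8 was lost without normoxic replicate 1 (edgeR adjusted p = 0.121), hypoxic replicate 1 (0.0722) or hypoxic replicate 2 (0.0581).

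**Figure D5:**
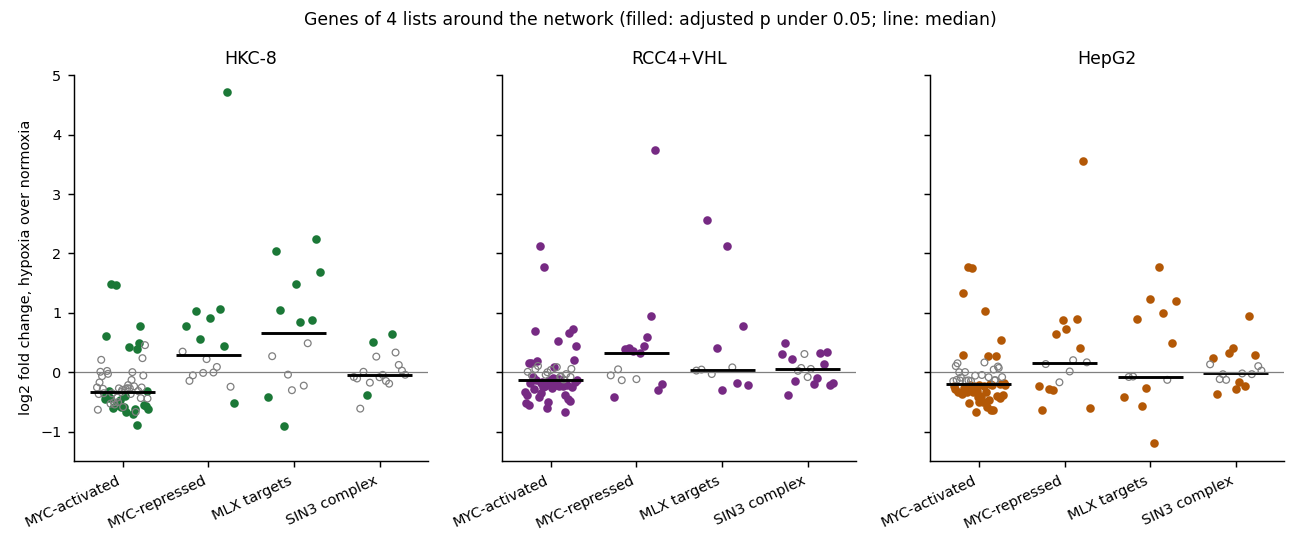
Log2 fold change, hypoxia over normoxia (y axis), of the tested genes of 4 lists (x axis) in each cell line; filled points passed edgeR's adjusted p of 0.05, grey open points did not, and black lines are list medians. The MYC-activated list sits mostly below 0 with a few genes far above it in every line, and 1 gene of the MYC-repressed list, NDRG1, stands at 4.72, 3.74 and 3.56.

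A list of genes that MYC represses had 7 called higher and 1 lower of 16 in HKC-8 (median 0.29), beside 11.2% and 9.12% of all genes. It had 8 and 3 of 15 in RCC4+VHL (0.32), beside 25.9% and 24.2%, and 6 and 5 of 16 in HepG2 (0.16), beside 19.9% and 19.2%. NDRG1, a stress-response gene also induced by HIF, led in every line and averaged 27.4, 49.6 and 44.03 CPM in normoxia and 718, 660 and 520 CPM in hypoxia in HKC-8, RCC4+VHL and HepG2. KLF4, a transcription factor that restrains proliferation, rose by 1.06 in HKC-8 and 0.89 in HepG2 on the log2 scale, at means of no more than 2.91 CPM, and the HKC-8 call was lost without normoxic replicate 1 (edgeR adjusted p = 0.0509). In RCC4+VHL its value of 0.60 passed with all samples and with none of the 6 left out in turn (0.0561 to 0.101). KLF6, its relative, rose by 0.95 in RCC4+VHL and was called higher in all 3 lines. Of the 15 list genes tested in every line, 4 were called higher in all 3 and 1 lower. Among all genes these shares were 3.81% and 3.43%. CDKN1A, which encodes the cell cycle inhibitor p21 and is a classical MYC-repressed gene, had no common direction, with 0.78 in HKC-8, -0.42 in RCC4+VHL and -0.64 in HepG2. Each was called, in HKC-8 not without normoxic replicate 1 or 2 or hypoxic replicate 1 (edgeR adjusted p = 0.062 to 0.0845).

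Of the targets of the MLX complexes, 7 of 14 rose and 2 fell in HKC-8 (median 0.67), beside 11.2% and 9.12% of all genes. In RCC4+VHL 4 of 11 rose and 3 fell (0.05), beside 25.9% and 24.2% of all genes, and in HepG2 6 of 13 rose and 4 fell (-0.07), beside 19.9% and 19.2%. No difference of the list between lines was tested. TXNIP, which restrains glucose uptake and is the best known target of MLXIP, had 26.6 ± 5.9 CPM in normoxic and 85.7 ± 6.5 in hypoxic HKC-8 (SD, n = 3), and 72.2 ± 7.3 and 166 ± 12 in HepG2. These rises were 1.69 and 1.20 on the log2 scale, whereas in RCC4+VHL TXNIP fell by 0.21 (edgeR adjusted p = 0.00371), with 186 ± 4 and 160 ± 21 CPM, a call absent in DESeq2 (0.106) and in the fit of all 18 samples (0.222). Its relative ARRDC4 rose in the same lines, by 1.06 in HKC-8 and 0.90 in HepG2, and had -0.03 in RCC4+VHL (adjusted p = 0.876). ARRDC3, another arrestin-like gene, instead rose in HKC-8 (2.04) and RCC4+VHL (2.56). HK2 is on this list as well as on the MYC-activated list, and it rose by 2.13 in RCC4+VHL and 1.77 in HepG2. It was 1 of 2 genes called higher in all 3 lines, of 10 tested in each, beside 3.81% of all genes. THRSP in HKC-8 (2.24) and G6PC in HepG2 (1.23) were also named by size, but THRSP had at most 21 counts and G6PC at most 65 in a sample, and THRSP was called in only 2 of the 6 fits that left out an HKC-8 sample.

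Of 17 genes of the SIN3 complex, the corepressor of the MXD proteins, 2 rose and 1 fell in HKC-8 (median -0.04), near the 11.2% and 9.12% of all genes; with the replicate block 4 rose and 4 fell, beside 42.5% of all genes called. In RCC4+VHL 6 rose and 6 fell (0.06), beside 25.9% and 24.2% of all genes, and in HepG2 5 rose and 4 fell (-0.02), beside 19.9% and 19.2%. SAP30, a SIN3 subunit, was the only one of the 17 called higher in all 3 lines, beside 3.81% of all genes. Its rises were 0.64, 0.33 and 0.94 on the log2 scale in HKC-8, RCC4+VHL and HepG2. In RCC4+VHL its groups overlapped, and the call was lost without normoxic replicate 1 (edgeR adjusted p = 0.0574) or 3 (0.0681). Other SIN3 members past the test by size were ING1 in HKC-8 (0.51, lost when any of 4 of the 6 samples was left out), ARID4B (0.49) and BRMS1 (-0.38) in RCC4+VHL and ING2 in HepG2 (0.42). SIN3A itself rose by 0.34 in RCC4+VHL and 0.30 in HepG2 and had 0.13 in HKC-8 (adjusted p = 0.317).

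Among 16 cofactors of MYC, none was called in HKC-8 by edgeR (0 higher and 4 lower at an unadjusted p under 0.05), 1 was called lower by DESeq2, and 1 rose and 6 fell with the replicate block, with a median of -0.04 and, among all genes, 11.2% called higher and 9.12% lower, or 42.5% in all with the block. In RCC4+VHL 2 rose and 7 fell (-0.09), beside 25.9% and 24.2% of all genes, and in HepG2 2 rose and 2 fell (0.02), beside 19.9% and 19.2%. KAT2A, an acetyltransferase recruited by MYC, fell in RCC4+VHL (-0.45) and HepG2 (-0.33), MYCBP2 rose in RCC4+VHL (0.77), and TRRAP, the scaffold of acetyltransferase complexes, rose in HepG2 (0.33). Of 16 genes that set MYC protein stability, 0 rose and 2 fell in HKC-8 by edgeR (0 and 5 at an unadjusted p under 0.05, 0 and 4 in DESeq2, 2 and 6 with the block), with a median of -0.09. Among all genes edgeR called 11.2% higher and 9.12% lower there, or 42.5% in all with the block. For both lists no share of all genes is given for the unadjusted and DESeq2 counts. Those counts are therefore not read as a result about the lists. In RCC4+VHL 5 rose and 4 fell (0.05), beside 25.9% and 24.2% of all genes, and in HepG2 3 rose and 6 fell (-0.07), beside 19.9% and 19.2%. AURKA (-0.49) and KIAA1524 (-0.30), which protect MYC from degradation, fell in HKC-8, the second of them not when any of 4 of the 6 samples was left out. AURKA was called lower in all 3 lines, with -0.17 in RCC4+VHL and means of 201.3 and 167.5 CPM in normoxic and hypoxic HepG2. It was the only gene of this list called in 1 direction in all 3, beside 3.43% of all genes called lower in all 3. The ubiquitin ligase HUWE1 (0.56) and the deubiquitinase USP37 (0.35) rose in RCC4+VHL, and the ubiquitin ligases FBXL14 (0.55) and SKP2 (-0.41) moved apart in HepG2.

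In PRC1.6, the complex of MGA, 1 of 11 tested rose and 1 fell in HKC-8 (median -0.12), near the 11.2% and 9.12% of all genes. With the block 1 rose and 4 fell, beside 42.5% of all genes called. In RCC4+VHL 2 of 11 rose and 2 fell (-0.02), beside 25.9% and 24.2%, and in HepG2 1 of 12 rose and 5 fell (-0.18), beside 19.9% and 19.2%. Among all genes, 3.43% were called lower and 3.81% higher in all 3 lines. L3MBTL2, a histone-binding subunit, fell in all 3 lines, by 0.43, 0.20 and 0.50 on the log2 scale. RYBP, shared with other Polycomb complexes, was called higher in all 3, with 0.34 in HKC-8 and 0.57 in HepG2. In HKC-8 both calls were lost without hypoxic replicate 1 (edgeR adjusted p = 0.0686 and 0.0679), and that of RYBP also without normoxic replicate 1 (0.0697). E2F6, the DNA-binding subunit, fell by 0.19 in RCC4+VHL, but not without normoxic replicate 3 (0.13), hypoxic replicate 1 (0.0868) or hypoxic replicate 2 (0.0562). The median over all genes was between -0.0044 and 0.0036 in the 3 lines, and no list was tested as a set.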

How the data were processed

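RNA-seq counts were analysed for 18 samples, 6 per cell line. The authors deposited 1 table of whole-number counts per gene and sample. Their processing notes and methods name Trim Galore 0.3.3, TopHat2 2.0.8b, Bowtie 1.0.0, SAMtools 0.1.19, HTSeq 0.5.4p3 and DESeq2, with reads aligned to GRCh37, reads without a unique place removed and HTSeq run in its intersection-strict mode; the strand setting of the counting is not given in the sources used here. Reads in overlapping genes may therefore be lost or shared.

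Each line was fitted apart with edgeR 4.0.16 (R 4.3.3): filterByExpr (minimum count 10), TMM scaling, quasi-likelihood test, and Benjamini-Hochberg adjustment over all genes tested, called under 0.05. The SE is the log2 fold change divided by the square root of F. Normoxic lines shared 1 fit of 9 samples, and the interaction used 12. Scripts were tested on simulated data. Totals set the precision: 3 counts served as the limit for a count of 0. Alternatives were DESeq2 1.42.0, other scalings and filters, a replicate block, 1 fit of all 18 samples, and leaving out each sample.

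In HKC-8 the replicate numbers of the labels were taken to pair the samples, since deviations of same-numbered samples correlated (r = 0.107, 0.442 and 0.440, each over 0.1). Replicate 1 passed that cut only just, and normoxic replicate 1 correlated best with hypoxic replicate 2, so the pairing is not established. The main fits of all lines used no block. The blocked HKC-8 fit called 5755 genes against 2757.

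The members and lists were chosen with earlier results of these data known. Named were the 10 members, from each list and line the 2 genes with the largest called change and no overlap between groups, and the 5 genes most like MYC and MXI1. ENO1, PKM, SLC7A5, ODC1, RRP9, TXNIP, ARRDC4, CDKN1A and SIN3A were named after their values were seen. So were SAP30, KLF4, KLF6, MYCL1, MLXIP and AURKA outside the lines where the rule took them. Promoters came from RefSeq (GRCh38.p14) and were placed in GRCh37 by exact match; exons came from GENCODE.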

Additional observations from a re-analysis of the deposited data

Results flagged for a closer look

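The MYC response to hypoxia differed between HepG2 and HKC-8 by -0.74 on the log2 scale, tested as a line-by-oxygen interaction (edgeR adjusted p = 0.0036). MYC was higher in 3 of 3 hypoxic HKC-8 samples than in any normoxic one, while the HepG2 groups overlapped. Leaving out each of the 12 samples in turn gave -0.87 to -0.65, with an adjusted p of at most 0.0115.

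The MLXIPL response differed by -3.32 in the same test (edgeR adjusted p = 0.00226), between a 5.48-fold ratio of pooled counts in HKC-8, from 9 and 50 counts, and a fall of 0.92 on the log2 scale in HepG2. Leaving out each sample gave -4.22 to -2.85, with an edgeR adjusted p of at most 0.0116. MLXIPL failed the filter on low counts in HKC-8 and entered this test through its HepG2 counts. Its HKC-8 side lies near the counting limit, so the p-values and this range are not taken as support for a difference. The part of the exposure, which the titles of the HKC-8 samples give as 0.1% oxygen and the labels as 0.5%, was not tested in either difference.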

How the results depend on the processing

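Over the 10 members in all comparisons, 380 of the values under other settings kept their direction and side of the threshold, 23 gained a call, 4 lost one and 5 changed sign. MXI1 was called higher and MLX lower in each line under every setting tried. With the replicate block, calls rose from 2757 to 5755 in HKC-8. For the interaction they rose from 1399 to 3019 of the 15046 genes tested, and its members became 5 lower and 1 higher. In RCC4+VHL and HepG2 the correlations did not all pass 0.1 (r from -0.012 to 0.177), so the numbers were not taken to pair the samples. In HepG2, though, each of the 3 correlated best with its own number (in RCC4+VHL 1 of 3). The block added MXD1 in HepG2 (-0.23, edgeR adjusted p = 0.0197). The fit of all 18 samples called 5013, 3286 and 2219 genes in HKC-8, RCC4+VHL and the interaction, with 2 members lower in HKC-8, 1 lower in RCC4+VHL, 1 higher in HepG2 and 1 higher in the interaction. DESeq2 called 2 members lower in HKC-8. Total count scaling, under which the median of all genes was -0.085 in RCC4+VHL and -0.097 in HepG2, gave 4 members lower in each of these lines and 1 higher in HepG2. With at least 10 counts required in every sample, 1 member was lower in the interaction. No share of all genes is given for DESeq2, total count scaling or the filter of 10 counts. Their member counts are therefore not read as a result about the network. The cause of these shifts was not tested.

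Values that changed sign were all small and uncalled: MXD4 in RCC4+VHL (0), MXD3 (-0.055) and TTC17 (-0.05) in HepG2 and MXD3 in the interaction (-0.007) under total count scaling, and MAX in the interaction in DESeq2 (0.004) and with DESeq2-type size factors (0.005).

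Leaving out each sample in turn gave 1013 calls (without normoxic replicate 1) to 3283 in HKC-8 and 911 (without HepG2 hypoxic replicate 1) to 1890 in the interaction. Over all genes it gave 5594 to 5952 calls in RCC4+VHL and 4095 to 5858 in HepG2. Members called lower ranged from 1 to 2 in HKC-8 and 1 to 4 in RCC4+VHL, members called higher from 1 to 3 in HepG2, and from 0 to 1 in the interaction. Sign changes spanned -0.114 to 0.009 for MAX and -0.244 to 0.187 for MXD3 in HKC-8, -0.001 to 0.324 for MXD1 and -0.182 to 0.069 for ARRDC4 in RCC4+VHL, -0.164 to 0.15 for MXD3 and -0.094 to 0.056 for UAP1L1 in HepG2, -0.069 to 0.035 for MAX and -0.154 to 0.251 for MXD3 in the interaction, and -0.048 to 0.069 for MNT and -0.244 to 0.013 for MYC between the normoxic kidney lines.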
